A study of Gossypium bickii with 18 samples.

Results

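Among the transcripts measured while the cotyledons of Gossypium bickii germinated, 33 of 43790 gene IDs were abundant in seed at 0 h, low at 12, 24 and 36 h, and abundant again at 48 h. Gossypium bickii is a diploid cotton species from Australia. They were chosen by their mean FPKM (sequenced fragments corrected for gene length and for the total mapped in a library) at each time. The means at 0 h and at 48 h both had to be at least 10 FPKM, and the means at 12, 24 and 36 h (the trough) each had to be at least 3-fold below the 0 h mean and at least 3-fold below the 48 h mean. Of 4989 gene IDs at 10 FPKM or more at both ends, 288 had a trough at least 3-fold below 0 h, and the 33 members were those of the 288 that also met the condition on 48 h. The dip itself is thus given by the choice of members and is described here without a test.

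All libraries came from cotyledons, with 3 libraries in each of 6 groups. The groups were 0 h after imbibition, the uptake of water that begins germination, for which the labels give no light condition, then 12, 24, 36 and 48 h after imbibition under light, and 24 h after imbibition in the dark. The labels call the replicates biological without naming separate plants or seed lots, so p-values measure only the spread between these libraries. The later times of the time course were all under light and 0 h has no stated light condition, so there the effects of imbibition and light cannot be told apart against 0 h. Darkness was sampled at 24 h alone, in a separate table that holds no 0 h library.

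Mature seeds hold a store of messenger RNA that was made during maturation on the mother plant. After water uptake much of this store is degraded while transcription starts anew, and the cotyledons turn from reserve organs into green, photosynthetic ones. A transcript can therefore be present in dry seed and in the growing seedling with a gap between. The files do not pair the gene IDs with gene names, so no function can be given for any member, no gene list or cell type marker could be looked up, and no sequence is shown. Whole organs were sampled, so fewer cells that hold a transcript and less of it per cell cannot be told apart.

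The libraries differed in how broad they were. Between 16841 and 17846 genes reached 1 FPKM in the 0 h libraries, against 20897 to 23910 in the later ones, and the 100 highest genes took 34.4% to 38.7% of summed FPKM at 0 h against 14.5% to 23.4% later. FPKM is a share of the library, so these differences move with every comparison that involves 0 h; their part in the members' values was not tested beyond the rescalings given below. The 0 h libraries gave the 33 members 0.482% ± 0.0316 of their summed FPKM (SD, n = 3). That share was 0.0314% ± 0.00568 in the 12 h libraries, 0.0404% ± 0.00602 in those of 24 h and 0.0657% ± 0.0086 in those of 36 h. By 48 h the members again held 0.337% ± 0.0131.

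**Figure D1:**
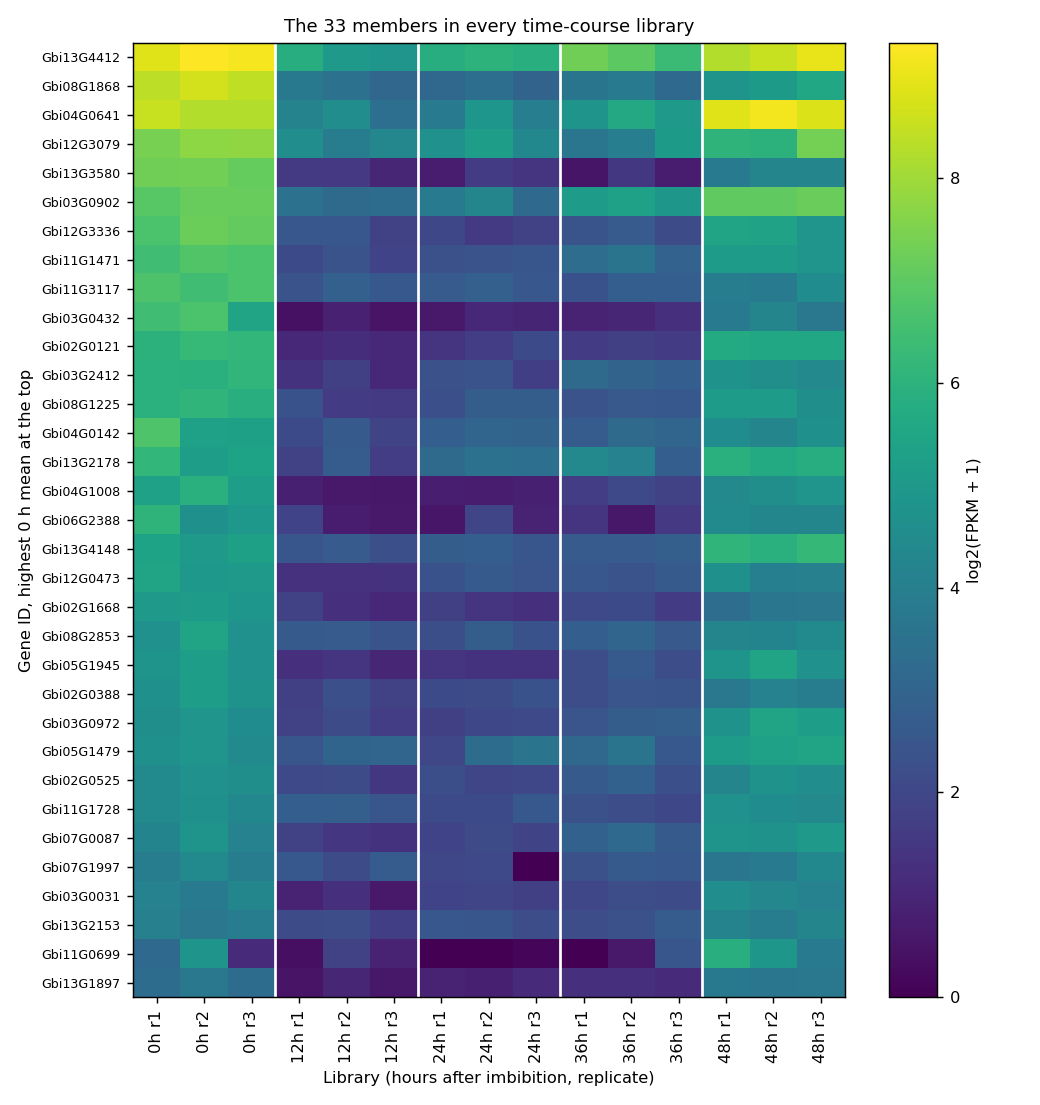
Colour shows log2(FPKM + 1) of each of the 33 members (rows, highest 0 h mean at the top) in each of the 15 time-course libraries (columns, hours after imbibition and replicate). Within each row the left and right blocks, 0 h and 48 h, are brighter than the 9 libraries between them, except for 0 h in Gbi11G0699. All rows share the colour scale, so Gbi13G4412 stays bright in its trough (28.3 to 155 FPKM).

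The rule required every member to be at least 3-fold below its 0 h mean by 12 h, the first time sampled after 0 h. An early loss was thus fixed by the choice of members, and its depth is given as a description. The 0 h mean exceeded the 12 h mean by a median of 16.2-fold, from 3.57-fold (Gbi07G1997) to 146-fold (Gbi03G0432). In 26 of the 33 members 12 h was the lowest of the trough means, 24 h was lowest in 5 and 36 h in 2. The median over members, taken separately at each time, was 40.3 FPKM in seed. It was 2.93, 3.61 and 4.74 FPKM through the trough (12, 24 and 36 h), and 23.9 FPKM by 48 h. For 27 members every trough mean stayed under 10 FPKM. The rule ties the trough to the lower end, so for members with low ends this too was fixed by the choice. In 32 members all 3 libraries of 0 h lay above all 9 trough libraries, and in all 33 members the 3 libraries of 48 h did. Over all 26086 genes tested 16.0% had such a separation at 0 h, 26.2% at 48 h and 2.83% at both, and since the rule used these values nothing is read from the difference. The exception at 0 h was Gbi11G0699.

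The highest member in seed was Gbi13G4412. Its libraries stood at 467, 637 and 589 FPKM at 0 h, at 54.5, 31.6 and 28.3 at 12 h, at 54.9, 64.2 and 57.0 at 24 h, at 155, 126 and 80.7 at 36 h, and at 304, 374 and 511 at 48 h. Its lowest point was thus at 12 h, and all libraries of 36 h already lay above all those of 24 h. At 48 h it had regained part of the seed level, with 1 library of 48 h inside the range of the 0 h libraries.

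Gbi04G0641 was the third highest in seed and the highest at 48 h. Its values were 368, 304 and 299 FPKM at 0 h, 16.9, 22.5 and 9.59 at 12 h, 12.8, 28.6 and 15.01 at 24 h, 27.2, 48.8 and 31.4 at 36 h, and 466, 568 and 457 at 48 h. Every library of 48 h exceeded every library of 0 h. The mean rose 13.9-fold from 36 h to 48 h.

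In the deposited values, Gbi03G0902 was back near its seed level at 48 h. It stood at 119, 139.7 and 142 FPKM at 0 h, 10.4, 8.21 and 8.82 at 12 h, 13.4, 17.8 and 8.06 at 24 h, 34.9, 39.3 and 29.6 at 36 h, and 132, 132 and 146 at 48 h. The 0 h and 48 h libraries overlapped, and the ratio of the means, 48 h over 0 h, was 1.03. Ratios of 48 h to 0 h moved with scaling, as given below, so equal levels are not shown.

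Other members regained only a small part of their seed level. Gbi08G1868 stood at 334, 404 and 339.6 FPKM at 0 h, between 6.76 and 13.6 in the 9 trough libraries, and at 27.0, 32.4 and 47.3 at 48 h. Gbi13G3580 stood at 156, 161 and 138 FPKM at 0 h, between 0.441 and 2.14 in the trough, and at 12.8, 18.0 and 17.9 at 48 h. In both the 48 h libraries lay clear above the trough and about 10.1-fold (Gbi08G1868) and 9.34-fold (Gbi13G3580) below the 0 h mean. Gbi12G3079, at 169, 210.0 and 215 FPKM at 0 h and between 11.7 and 36.7 in the trough, varied most at the end among the members highest in seed, with 65.5, 61.8 and 166 FPKM at 48 h.

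**Figure D2:**
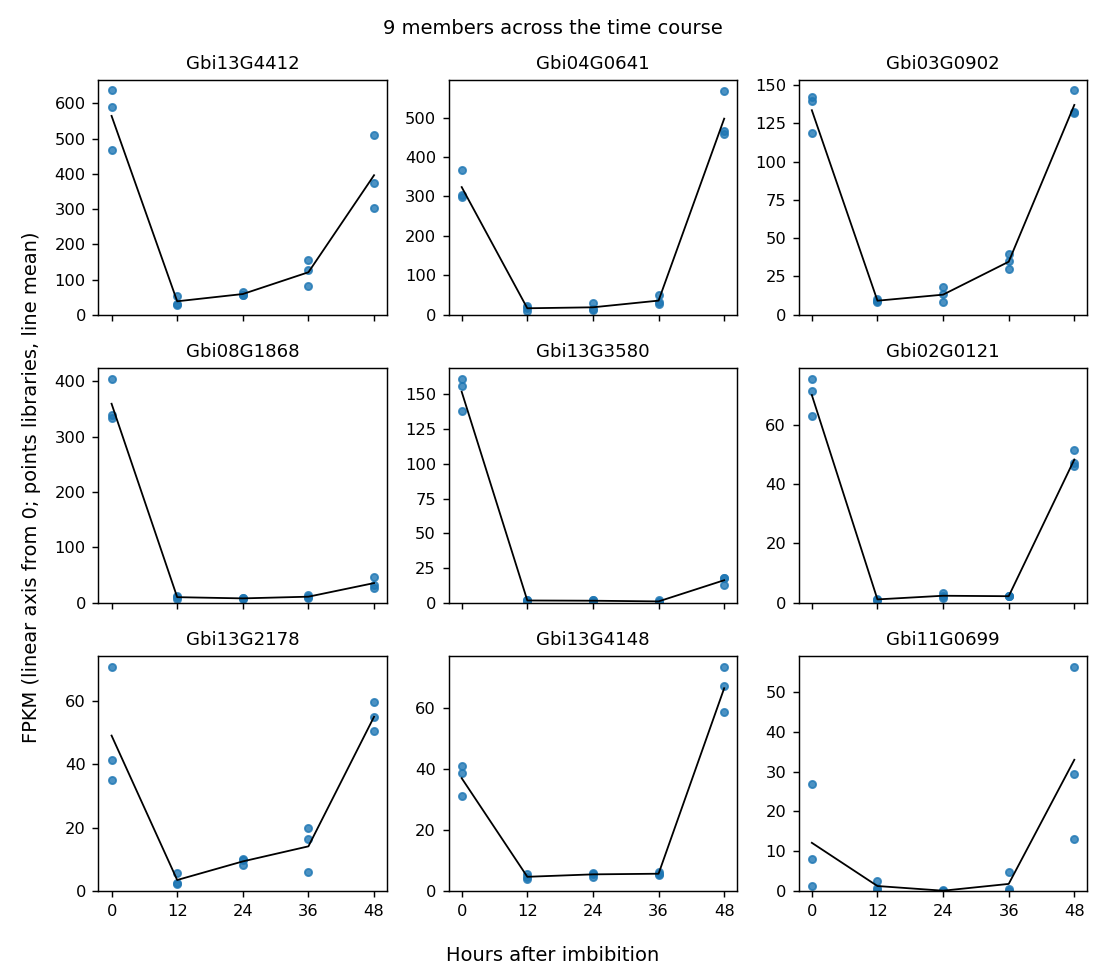
FPKM (linear axis from 0) of 9 members against hours after imbibition; points are libraries, 3 a time, and lines join the means. All fall to a low floor at 12 h, but the mean at 48 h runs from 16.2 FPKM after 152 in Gbi13G3580 to 497 after 324 in Gbi04G0641.

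The deepest trough relative to both ends belonged to Gbi02G0121. It stood at 63.0, 75.5 and 71.5 FPKM at 0 h and at 51.4, 47.2 and 46.3 at 48 h, while its 9 trough libraries ran from 1.04 to 3.26. Its lower end was 20.3-fold above its highest trough mean, against a median of 3.90-fold over members. Gbi06G2388 followed with 13.6-fold, but its 0 h libraries (66.0, 24.5 and 30.2 FPKM) differed more than 2-fold among themselves. Gbi03G0432 came next with 13.3-fold, from 86.8, 101 and 42.2 FPKM at 0 h through 0.351 to 1.45 in the trough to 13.8, 17.8 and 12.2 at 48 h. Gbi04G1008 stood at 39.3, 59.3 and 35.4 FPKM at 0 h, between 0.509 and 0.760 at 12 h and 24 h, at 2.24, 3.18 and 2.56 at 36 h and at 20.1, 23.6 and 27.9 at 48 h. In 6 of the 33 members at least 1 trough mean was under 1 FPKM, and in 0 members were all of them.

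Several members sat close to the limits of the rule. The highest trough mean was 0.329 of the lower end in Gbi11G3117 and 0.327 in Gbi05G1479, the members just inside the limit. Just outside stood Gbi09G1573 (0.335) and Gbi13G5291 (0.336). Gbi09G1573 averaged 224 FPKM at 0 h, was listed at 0 at 12 h and 24 h, and averaged 16.3 at 36 h and 48.7 at 48 h. In all, 12 members lay within 0.05 below the limit and 13 other gene IDs within 0.05 above it. Among those 12 were Gbi13G4412 (0.304) and Gbi08G1868 (0.310), the members highest in seed. Both failed the rule without 36 h replicate 3, without 48 h replicate 3, and with group medians in place of means. Group medians gave 25 gene IDs, of which 23 were members, and 10 members were lost. The list therefore has no sharp edge.

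The rule was also run with 1 replicate number left out at a time, and the dip was then read in the libraries left out. With replicate 1 of every time left out, the rule chose 31 gene IDs, and 22 of these (71.0%) also stood at least 3-fold lower at 12, 24 and 36 h than at both ends in the left-out libraries alone. With replicate 2 left out it was 19 of 37 (51.4%), and with replicate 3 left out 21 of 25 (84.0%). Among all gene IDs at 10 FPKM or more at both ends in the remaining libraries, 0.633%, 0.446% and 0.847% did so. The labels do not say whether replicate numbers pair libraries across times. Between 23 and 29 of the gene IDs chosen in this way were among the 33 members, whose own choice used every library. The shares thus describe the rule and are no separate test of the 33 members.

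The part of the seed level regained at 48 h varied among members. The rule set a floor on the means at both ends, so genes low at either end could not be members, and nothing is read from how the members' counts differ from those of all genes. With limma on log2(FPKM + 1) over all 26086 genes, 10 members were lower at 48 h than at 0 h (adjusted p under 0.05 and a log2 difference of at least 1 in size) and 1 was higher. Over all genes tested, 16.2% were lower and 44.1% higher, and among the 4989 gene IDs that met the floor at both ends 24.9% were lower and 16.1% higher. The remaining 22 members were not called, and their 48 h means ranged from 0.473 to 1.80 of the 0 h means. A missed call does not show equal levels, and 9 of these 22 had an adjusted p under 0.05 with a log2 difference smaller than 1. With no fold minimum 55.5% of all genes were higher and 23.9% lower. The 0 h and 48 h libraries did not overlap in 20 of the 33 members, against 80.4% of all genes tested.

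The members called lower were Gbi08G1868 (log2 difference -3.33, SE 0.23, adjusted p = 5.5e-09 by limma), Gbi13G3580 (-3.16), Gbi11G3117 (-2.51), Gbi03G0432 (-2.24), Gbi12G3336 (-1.77), Gbi11G1471 (-1.60), Gbi02G1668 (-1.46), Gbi03G2412 (-1.41), Gbi04G0142 (-1.29) and Gbi12G3079 (-1.16). Gbi11G3117 stood at 105, 86.5 and 102 FPKM at 0 h and at 14.3, 13.8 and 21.9 at 48 h. Gbi12G3336 stood at 101, 149 and 135 FPKM at 0 h and at 42.5, 40.3 and 28.3 at 48 h. None of the libraries of either gene overlapped between the ends. The call of Gbi04G0142 rested on its first 0 h library (106 FPKM, against 38.8 and 38.0), and without it the log2 difference was -0.81 (adjusted p = 0.00522). The call of Gbi12G3079 was lost without 48 h replicate 1 (adjusted p = 0.0627) or replicate 2 (0.0682).

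The members higher in seed were more often the ones below their seed level at 48 h. Of the 14 members at 50 FPKM or more at 0 h, 12 had a lower mean at 48 h, and of the 19 under 50 FPKM 8 did. The 0 h mean enters both the grouping and the ratio, so these counts are given as a description.

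In 13 members the 48 h mean was within 1.5-fold of the 0 h mean, and most of these were moderate in level. Gbi13G1897, the lowest member in seed, stood at 8.79, 12.3 and 8.92 FPKM at 0 h, between 0.424 and 1.42 in the trough, and at 12.5, 11.6 and 12.3 at 48 h. Gbi05G1945 stood at 27.2, 35.2 and 25.4 FPKM at 0 h, between 1.02 and 1.64 at 12 h and 24 h, at 3.55, 5.26 and 3.64 at 36 h, and at 27.1, 42.4 and 25.3 at 48 h. In both genes the end groups overlapped and the trough lay clear below them.

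Gbi02G0525 stood at 20.9, 25.1 and 24.2 FPKM at 0 h, between 1.83 and 6.44 in the trough, and at 17.8, 26.2 and 22.8 at 48 h. Gbi03G0031 stood at 16.5, 12.8 and 18.3 FPKM at 0 h, at 0.865, 1.36 and 0.563 at 12 h, between 2.43 and 3.59 at 24 h and 36 h, and at 22.9, 19.0 and 16.4 at 48 h. Gbi13G2153 had a shallower dip, from 15.6, 12.1 and 14.6 FPKM at 0 h through 2.30 to 5.49 in the trough to 16.8, 14.2 and 18.0 at 48 h. Here too the libraries of 0 h and 48 h overlapped in each gene. Gbi03G0972 was near the upper edge of these members, with 23.8, 27.9 and 22.3 FPKM at 0 h, 2.24 to 6.05 in the trough and 25.7, 42.5 and 36.6 at 48 h.

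At the other side, 13 members had a 48 h mean of at most 0.5 of the 0 h mean. Besides those called lower, they included Gbi08G1225, which stood at 60.8, 67.3 and 56.9 FPKM at 0 h, between 1.99 and 5.79 in the trough, and at 34.2, 34.0 and 24.1 at 48 h. Its end groups did not overlap, and its log2 difference of -0.99 (SE 0.21, adjusted p = 0.00055 by limma) fell just short of the size needed for a call. Gbi02G0388 stood at 24.4, 36.8 and 26.1 FPKM at 0 h and at 12.1, 16.5 and 14.2 at 48 h, also without overlap (-0.96, SE 0.19, adjusted p = 0.000277).

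Some members stood above their seed level at 48 h. Gbi13G4148 stood at 40.9, 31.1 and 38.7 FPKM at 0 h, between 3.78 and 6.06 in the trough, and at 67.0, 58.7 and 73.5 at 48 h, so that all libraries of 48 h lay above all of 0 h. Its log2 difference was 0.83 (SE 0.15, adjusted p = 0.000143 by limma), under the size needed for a call. Gbi05G1479 stood at 24.6, 27.7 and 20.9 FPKM at 0 h and at 34.2, 39.6 and 42.4 at 48 h, again without overlap (0.65, SE 0.34, adjusted p = 0.0974). Gbi04G0641, described above, had a log2 difference of 0.62 (SE 0.31, adjusted p = 0.0839). After median-of-ratios scaling these differences shrank to 0.27 for Gbi13G4148, 0.09 for Gbi05G1479 and 0.04 for Gbi04G0641.

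Gbi11G0699 was the member called higher at 48 h, and it was also the most variable. It stood at 8.06, 27.0 and 1.22 FPKM at 0 h, 0.297, 2.51 and 0.839 at 12 h, 0, 0 and 0.125 at 24 h, 0, 0.564 and 4.69 at 36 h, and 56.3, 29.5 and 13.2 at 48 h. The 0 h libraries overlapped both those of the trough and those of 48 h. The log2 difference was 1.82 (SE 0.80, adjusted p = 0.0495 by limma), and the call was lost without 0 h replicate 1 (adjusted p = 0.0794), 0 h replicate 3 (0.282), 48 h replicate 1 (0.185) or 48 h replicate 2 (0.0955). It was also lost with a pseudocount of 0.1 (0.147), no filter (0.0786), median-of-ratios scaling (0.155), quantile normalization (0.152), rescaling to TPM (0.0615) or a fit of only the groups compared (0.0906).

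**Figure D3:**
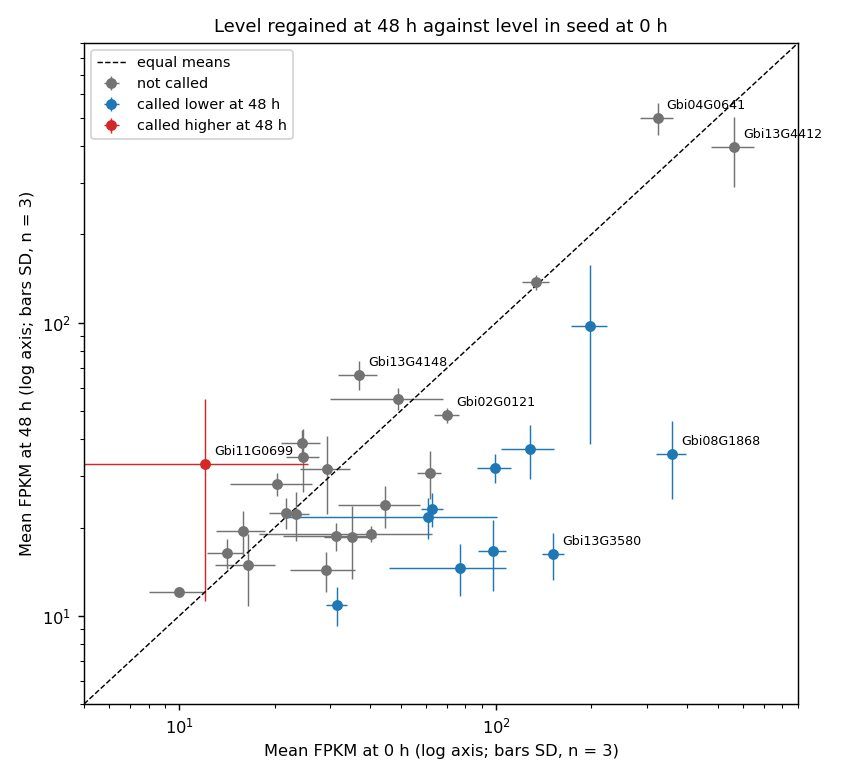
Mean FPKM at 48 h against mean FPKM at 0 h on log axes for the 33 members. Bars are SD (n = 3) and the dashed line marks equal means. The 0 h SD of Gbi11G0699 exceeds its mean, so its lower bar was shortened for the log axis and still runs off the left edge. The 10 members called lower at 48 h (blue) lie below the line, and 1 member (red) was called higher.

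The balance at 48 h depended on scaling. As deposited, 13 members had a higher mean at 48 h than at 0 h, and the median member stood at 0.690 of its 0 h mean. After median-of-ratios scaling 4 members did (median 0.466), after quantile normalization 8 (0.641) and after rescaling to TPM 14 (0.736). Over all genes tested the median log2 difference was 0.74 in the deposited values, 0.34 with median-of-ratios scaling, -0.11 with quantile normalization and 0.88 in TPM. The members' median was -0.53, -1.11, -0.61 and -0.44 in the same order. The 4989 gene IDs that met the floor at both ends had a median of -0.20 in the deposited values. Members called lower numbered 18 after median-of-ratios scaling, under which 23.8% of all genes were called lower.

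The trough was not flat. In 31 of 33 members the mean was higher at 36 h than at 12 h, and in 20 it rose at each step from 12 h through 24 h to 36 h. Both means had to lie under limits that each gene's ends set, so nothing is read from how these counts differ from those of all genes. With limma, 11 members were called higher at 36 h than at 12 h and 0 lower, where 15.7% of all 26086 genes were called higher and 4.95% lower. At an unadjusted p under 0.05, 19 members were higher and 1 lower, where 31.6% and 19.5% of all genes were. With no fold minimum on the adjusted p 16 were higher and 1 lower, against 27.9% and 15.8% of all genes. The median log2 difference of members was 0.55, against 0.08 for all genes. Among the 4989 gene IDs that met the floor at both ends, 8.78% were called higher (median -0.07). In 2 sets defined below, 65.2% (gained at 48 h only, median 1.45) and 2.09% (lost from 0 h and not regained, median -0.34) were. A rise between 12 h and 36 h was thus not particular to the members.

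The largest such rises were in Gbi03G0902 (log2 difference 1.81, SE 0.21, adjusted p = 1.23e-05 by limma), Gbi13G2178 (1.69), Gbi13G4412 (1.64), Gbi03G2412 (1.58) and Gbi07G0087 (1.37). Gbi03G2412 went from 1.59, 2.40 and 1.08 FPKM at 12 h through 3.94, 4.19 and 2.33 at 24 h to 8.24, 6.76 and 5.82 at 36 h, and then to 25.9, 23.5 and 19.9 at 48 h. Gbi07G0087 went from 2.46, 1.77 and 1.58 FPKM through 2.66, 3.35 and 2.74 to 6.44, 8.09 and 5.30, and then to 27.5, 26.1 and 31.1. In both, all libraries of 36 h lay above all those of 12 h and 24 h, and all libraries of 48 h above those of 36 h.

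The other calls, all between 1.11 and 1.19 log2 units, were Gbi03G0031, Gbi04G1008, Gbi12G0473, Gbi11G1471, Gbi04G0641 and Gbi05G1945. Gbi04G0641 lost its call without 12 h replicate 3 (adjusted p = 0.0575) or 36 h replicate 2 (0.0544), and Gbi05G1945 fell to 0.97 log2 units without 36 h replicate 2. After quantile normalization 6 of these 11 members were called, where 11.7% of all genes were called higher, the log2 difference was above 0 in 22 members instead of 30, and its median was 0.19 for members and -0.13 for all genes.

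In the other 22 members the difference between 12 h and 36 h was not called. Gbi13G4148 stood at 4.64, 5.40 and 3.78 FPKM at 12 h, 5.68, 5.85 and 4.68 at 24 h and 5.44, 5.34 and 6.06 at 36 h. Gbi02G0121 stood at 1.04, 1.34 and 1.05 FPKM at 12 h and at 2.15, 2.37 and 2.14 at 36 h, without overlap, but its log2 difference was 0.59 (SE 0.16, adjusted p = 0.00826 by limma). From 36 h to 48 h its mean then rose 21.8-fold, the highest such ratio of any member. Gbi11G1728 went the other way, from 5.94, 6.13 and 4.58 FPKM at 12 h to 3.96, 3.60 and 3.05 at 36 h (log2 difference -0.53, SE 0.17, adjusted p = 0.02), and was back at 25.3, 22.2 and 19.8 FPKM at 48 h after 21.0, 24.4 and 19.6 at 0 h. Of the 10 members called lower at 48 h than at 0 h, 2 were called higher at 36 h than at 12 h.

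**Figure D4:**
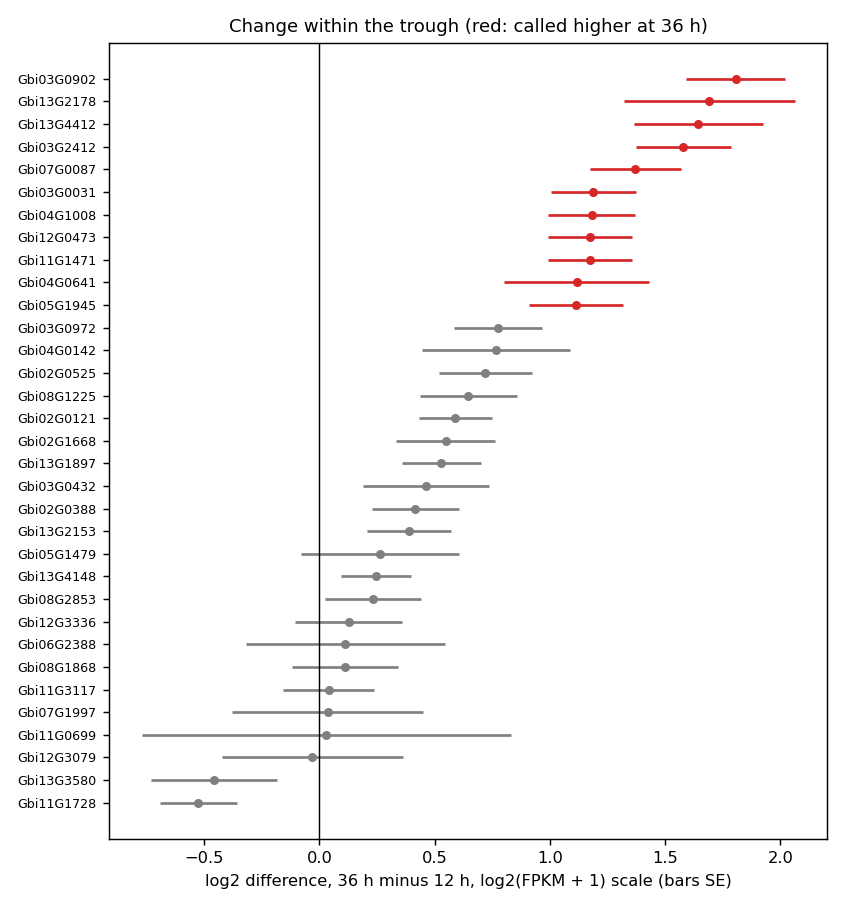
Log2 difference of 36 h minus 12 h on the log2(FPKM + 1) scale for the 33 members, with SE from limma as bars; red marks the 11 called higher at 36 h. Estimates run from -0.53 in Gbi11G1728 to 1.81 in Gbi03G0902, and most lie right of 0.

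The dark libraries took no part in the choice of members and gave a separate readout. They stand in a second table, made separately by the authors together with the 24 h light libraries, so values are compared only within that table. The 24 h light libraries are the ones in which members had to be low, which by itself favours lower values in light. All 33 members are listed there, but 2 of them, Gbi03G2412 and Gbi12G0473, are at 0 in all 6 libraries although they stood between 2.33 and 5.17 FPKM at 24 h in the time course. A further 2, Gbi06G2388 and Gbi11G0699, did not reach 1 FPKM in 3 libraries. That left 29 members tested.

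With limma over 23059 genes, 5 members were called higher in light and 0 lower, where 2.55% of all genes were called higher and 0.607% lower. A set gained at 48 h only had a 48 h mean of at least 10 FPKM, at least 3-fold above every earlier mean. Of its 901 gene IDs tested, 14.5% were called higher in light, with a median log2 difference of 0.46. A set lost from 0 h and not regained had a 0 h mean of at least 10 FPKM, at least 3-fold above every later mean. Of its 756 tested, 4.37% were called higher (median 0.16). A share above that of all genes was thus not particular to the members. At an unadjusted p under 0.05, 11 members were higher and 1 lower (Gbi07G1997), where 19.7% and 9.63% of all genes were. Of the 29 members tested, 2 (Gbi02G0121 and Gbi03G0972) had no dark library at 1 FPKM. They passed the filter on low values only through their light libraries, so they had to be higher there. Gbi13G2178 and Gbi03G0031, both called higher, had 1 dark library at 1 FPKM and so also needed their light libraries to pass. Leaving out Gbi02G0121 and Gbi03G0972, a step chosen after seeing the data, left 4 of 27 members called higher and 0 lower. Every light library lay above every dark one in 10 of the 27, and the median log2 difference was 0.19. Those 4 still include Gbi13G2178 and Gbi03G0031, and the shares over all genes had no such genes left out. With all 29 kept, every light library lay above every dark library in 12 of the 29, against 23.5% of all genes tested, and below in 1, against 11.8%. The median log2 difference was 0.27 for these 29 and 0.13 for all genes.

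Gbi13G2178 had the strongest light response among members. It stood at 0.205, 1.05 and 0.353 FPKM in the dark and at 10.2, 12.5 and 11.5 in light, a mean 21.2-fold higher (log2 difference 3.05, SE 0.24, adjusted p = 0.00175 by limma). In the time course its libraries stood at 70.8, 35.0 and 41.4 FPKM at 0 h, 2.51, 5.54 and 2.24 at 12 h, 8.30, 10.002 and 9.63 at 24 h, 19.99, 16.3 and 5.91 at 36 h, and 59.8, 50.4 and 54.8 at 48 h. Its dark values at 24 h were thus low, and its means climbed at each step under light from 12 h on. The call remained in every setting run.

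Gbi04G0142 stood at 1.95, 2.78 and 2.81 FPKM in the dark and at 7.07, 9.05 and 8.36 in light (log2 difference 1.39, SE 0.19, adjusted p = 0.0116 by limma). Gbi02G0121, the member with the deepest trough, stood at 0.551, 0.579 and 0.925 FPKM in the dark and at 2.20, 2.73 and 3.75 in light (1.20, SE 0.23, adjusted p = 0.0328). Gbi03G0031 stood at 0.917, 0.897 and 1.12 FPKM in the dark and at 3.36, 3.68 and 3.05 in light (1.14, SE 0.18, adjusted p = 0.0202). None of these overlapped between light and dark. For Gbi02G0121, which passed the filter only through its light libraries, this lack of overlap was fixed by the filter, and nothing is read from its call. Gbi03G0031, with 1 dark library at 1 FPKM, also needed its light libraries to pass.

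Gbi11G3117 stood at 2.07, 2.50 and 3.30 FPKM in the dark and at 6.78, 8.02 and 5.95 in light (log2 difference 1.13, SE 0.20, adjusted p = 0.0281 by limma). The calls of Gbi11G3117, Gbi02G0121 and Gbi03G0031 were lost with no filter (adjusted p of 0.0744, 0.0762 and 0.0580) and after quantile normalization (log2 differences of 0.87, 0.97 and 0.91), while those of Gbi13G2178 and Gbi04G0142 remained. The count of 5 moved with every library left out. It was 2 without dark replicate 1, dark replicate 2 or light replicate 1, 8 without dark replicate 3, and 1 without light replicate 2 or light replicate 3. The count over all genes moved in the same way. It was 587 of 23059 in the main fit, 1723 of 22587 without dark replicate 3, and 180 to 307 without any other library. The adjusted p of Gbi04G0142 was 0.0502 without light replicate 2 and 0.0683 without light replicate 3, and that of Gbi03G0031 and Gbi11G3117 lay above 0.05 without any library other than dark replicate 3. Gbi02G0121 lost its call without dark replicate 1 (0.0821) or dark replicate 2 (0.125), and without a light library it was not tested.

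The other 24 members were not called, with log2 differences from -0.58 to 1.53. The highest of these was Gbi04G0641, at 5.17, 12.7 and 10.1 FPKM in the dark and 20.1, 43.9 and 22.7 in light (1.53, SE 0.37, adjusted p = 0.0581 by limma), without overlap. Gbi13G4412 stood at 89.3, 123 and 75.0 FPKM in the dark and at 77.3, 92.4 and 79.6 in light, and Gbi03G0902 at 14.2, 22.0 and 15.1 against 17.0, 22.1 and 10.4. Light and dark overlapped in both, although both were among the members that had risen most from 12 h to 36 h. Gbi07G1997 was the member whose light libraries (7.74, 7.79 and 7.69 FPKM) all lay below the dark ones (15.9, 13.8 and 8.02). In the time course, the 24 h libraries taken as the same light samples stood at 2.93, 3.18 and 0 FPKM for this gene.

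**Figure D5:**
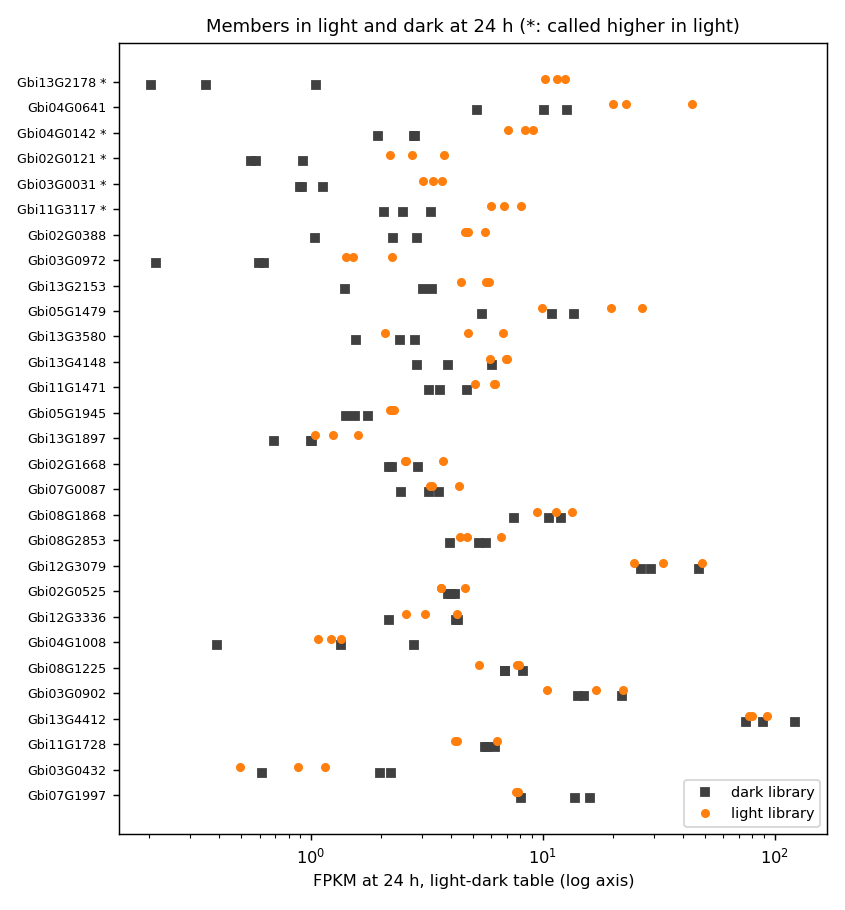
FPKM at 24 h (log axis) in the 3 dark libraries (squares) and 3 light libraries (circles) for the 29 members tested, ordered by log2 difference with the highest at the top; asterisks mark the 5 called higher in light. Gbi13G2178 stands apart, with 0.205 to 1.05 FPKM in the dark and 10.2 to 12.5 in light.

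The rise within the trough and the light response come from different libraries. Of the 9 members called higher at 36 h that were also tested for light, 2 (Gbi13G2178 and Gbi03G0031) were called higher in light. Across the 29 members the log2 differences of the 2 comparisons correlated at 0.265 (Pearson) and 0.184 (Spearman), given as a description over genes that share the same libraries.

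The members were scattered over the gene ID series. They carried 10 of the 13 numbered ID prefixes, from 1 member under Gbi06 to 6 under Gbi13, or between 0.0378% and 0.182% of the gene IDs under a prefix. There were 0 pairs with ID numbers within 5 of each other, and the closest were Gbi13G2153 and Gbi13G2178, which are 25 apart. Members with all their reads shared would keep a steady ratio across libraries, while members that share only some need not. Of 528 pairs compared, 0 had an SD of the log2 ratio of at most 0.15, and the lowest was 0.332, for Gbi03G0902 and Gbi07G0087 over 15 libraries. This does not show whether members share some of their reads.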

How the data were processed

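Values are FPKM in 2 tables made separately and deposited by the authors, with 15 time-course and 6 light-dark libraries, per the file headers. Per the labels' protocols, the NEBNext Ultra RNA kit was used and reads were paired-end. The submitters' processing notes list HTSeq 0.6.0, HISAT2 2.0.4 and Trimmomatic 0.36. Build, annotation and strandedness are not given in the sources. The 24 h columns of the time course name neither light nor dark. They were taken as light because the other table holds separate dark columns. Their replicate deviations correlated across 14252 genes at 0.798 to 0.807 with same-numbered light columns there and at -0.0928 to 0.121 with dark ones.

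The members and lists were chosen with earlier results of these data known. Tests used limma 3.58.1 in R 4.3.3 on log2(FPKM + 1), with group means and a trend of variance on mean. P-values were adjusted by Benjamini-Hochberg over every gene at 1 FPKM or more in at least 3 libraries. All 5 times shared 1 fit. Calls needed an adjusted p under 0.05 and an absolute log2 difference of at least 1, two-sided. Log2 differences understate changes of low genes. The steps were tested on simulated data. Absolute depth is unknown. Low values of the light-dark table fell on repeated steps, which gave relative depths of 1.06 to 1.16 against dark replicate 1, and no such steps were seen in the time course. Members described in full were the highest at 0 h and at 48 h, the deepest troughs, the extreme ratios of 48 h to 0 h, the strongest light calls and those nearest the limit. Other members named were picked after their values were seen.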

Additional observations from a re-analysis of the deposited data

How the results depend on the processing

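The number of gene IDs that met the rule was 105 with a 2-fold and 15 with a 4-fold dip, 50 with a floor of 5 FPKM and 20 with one of 20 FPKM, 50 after median-of-ratios scaling, and 27 to 36 when each library was left out, with 20 of the 33 members kept throughout. Members called lower at 48 h than at 0 h numbered 18 after median-of-ratios scaling, 16 with no fold minimum, and 10 to 12 with each library left out. Members called higher numbered 4 with no fold minimum, 0 to 1 with each library left out, and 0 with a pseudocount of 0.1, no filter, median-of-ratios scaling, quantile normalization, rescaling to TPM, the replicate block or only the groups compared. Called higher at 36 h than at 12 h were 6 after quantile normalization and 9 to 11 with each library left out; called lower was 1 with no fold minimum, and 0 with each library left out. Called higher in light were 2 with no filter, 2 after quantile normalization (Gbi13G2178 and Gbi04G0142), 3 with the replicate block (these and Gbi04G0641) and 1 to 8 with each library left out; 0 were lower in every setting run. Over all genes, the count called higher in light also ran from 180 to 1723 with each library left out, against 587 in the main fit. The cause of these shifts was not tested. Same-numbered libraries correlated in their deviations at -0.0912 to 0.197, with no comparison above 0.1 in all 3. Such weak correlations neither show nor exclude pairing by replicate number, which the labels do not state. Other counts were the same with the block. No called member changed direction. In all settings run, 8 of 11 members called between 0 h and 48 h, 5 of 11 between 12 h and 36 h and 1 of 5 for light were called. Unknown depth limits what can be said of trough values under 1 FPKM.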
